A study of Mus musculus with 6 samples.

Results

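Clec4n, Clec10a, Mrc1, Ms4a6c, Ms4a6b and Ms4a7 encode cell-surface receptors and membrane proteins of macrophages, and the values of these 6 of the 30905 genes in the files are described here in testis macrophages of mice exposed to cigarette smoke and of control mice. The genes were taken by symbol. Clec4n, Ms4a6c and Clec10a were selected on their levels in macrophages of these libraries, which were higher in the smoking group, so their difference between the groups is given as a description with no test, while Ms4a6b, Ms4a7 and Mrc1 were tested. The study asked how passive smoking affects the testis, and droplet single-cell RNA-seq was deposited for 3 libraries from smoking mice and 3 libraries from control mice.

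The mice were males of the outbred ICR stock. Those of the smoking group breathed the smoke of 15 cigarettes per session, each with 1.1 mg nicotine and 11 mg tar, for 30 min per day over 12 weeks at 3.47 mg/m3 of smoke. Control mice stayed in a chamber without smoke for the same period. All were bought at 6 weeks of age and adapted for 1 week, while the age label reads 8 weeks. Each group had 7 mice per the labels, which do not tie libraries to mice, so a p-value here reflects variation among libraries that may be technical. Cells came from the left testis, and dead cells had been depleted.

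Macrophages are the most abundant immune cells of the testis. Interstitial macrophages lie beside Leydig cells and carry little MHC class II, whereas peritubular macrophages surround the seminiferous tubules and carry more of it. Clec4n (Dectin-2) is a C-type lectin that binds mannose-rich glycans of fungi and signals through the Fc receptor gamma chain (Fcer1g) and the kinase Syk. Clec10a (Mgl1, CD301a) binds galactose and N-acetylgalactosamine residues, and Mrc1 (the mannose receptor, CD206) takes up mannosylated glycoproteins. The Ms4a genes encode proteins that span the membrane several times, and Ms4a7 is widely used as a macrophage marker.

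In the mm10 assembly (GRCm38, GENCODE M21) all 6 are protein-coding genes. Clec4n lies on chromosome 6 at 123229843 to 123247021, Clec10a on chromosome 11 at 70156197 to 70170834 and Mrc1 on chromosome 2 at 14229392 to 14332057, all on the plus strand. The 3 Ms4a members sit in 1 gene cluster on chromosome 19. Ms4a7 occupies 11321039 to 11336146 on the minus strand, and Ms4a6c, at 11469366 to 11482192, is followed by Ms4a6b at 11516512 to 11531256, both on the plus strand. Of the last 500 bases of the Ms4a6c transcript, 73 of 470 stretches of 31 bases (15.5%) also occur in the Ms4a6b transcript, and 0 of 470 do so the other way. Counts of this pair are therefore uncertain to the extent that the counting split shared reads.

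Sequences upstream of Ms4a6c and Ms4a6b are shown because these neighbours look alike before their starts, and 1 of them was picked for its rise while the other was not. The RefSeq windows (GRCm38.p6) reach from 250 bases before the annotated start to that start. They are printed 5′ to 3′ on the plus strand up to the first base that GENCODE places in an exon, at chr19:11469118-11469365 for Ms4a6c (248 bases) and chr19:11518309-11518452 for Ms4a6b (144 bases, inside the gene as GENCODE draws it). Capitals mark AGGAAGT, of the type bound by ETS factors such as PU.1, and GAAAGTGAA, of the type bound by interferon regulatory factors.
Ms4a6c: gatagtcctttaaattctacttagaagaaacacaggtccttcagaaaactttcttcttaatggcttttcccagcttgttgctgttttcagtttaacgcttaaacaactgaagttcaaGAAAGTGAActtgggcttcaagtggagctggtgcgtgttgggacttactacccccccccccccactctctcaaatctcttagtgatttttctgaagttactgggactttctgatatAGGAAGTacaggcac
Ms4a6b: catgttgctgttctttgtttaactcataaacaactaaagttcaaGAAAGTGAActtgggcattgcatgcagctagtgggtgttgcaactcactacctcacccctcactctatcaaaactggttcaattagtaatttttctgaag
Over the whole 250-base windows, 174 bases could be aligned with 83.3% identity, with a longest identical run of 48 bases. GAAAGTGAA began 133 bases before the RefSeq start of Ms4a6c and 206 bases before that of Ms4a6b. AGGAAGT began 17 bases before the start of Ms4a6c, and in Ms4a6b 86 bases before it and, on the minus strand, 43 bases before it, both in the stretch not printed. Searched on both strands, GAAAGTGAA occurred in 0.481% and AGGAAGT in 7.69% of 32851 such windows of the RefSeq table. These motifs do not overlap each other in either window, and they were chosen after the sequences had been seen. Outside this pair, the table held windows of Mrc1 and Ms4a7. The Mrc1 window had AGGAAGT on the minus strand, and the 2 Ms4a7 windows had neither motif. Of 2 further motifs searched, TGANTCA (AP-1 type, in 6.75% of windows) occurred in 1 Ms4a7 window, 81 bases before the start, and TTGCNNAA (C/EBP type, in 9.56%) in none of these windows. A match is a string of letters and not evidence of binding.

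After filtering, 47920 of 54253 deposited barcodes remained. A barcode stands for 1 droplet with a captured cell, and a unique molecular identifier (UMI) for 1 captured RNA molecule. Deposited UMIs per library ranged from 55751481 to 78455606 in smoking libraries and from 39607204 to 54915594 in controls. All deposited barcodes were clustered without the 6 genes, and the filter was applied to the clusters afterwards. With 364 retained barcodes, 1 cluster carried 17 of 18 macrophage markers and is called macrophage-like. This cluster held 480 barcodes when doublets were kept. Its leading genes were Lyz2, C1qa, Cd74, Wfdc17, C1qc, Tyrobp, Ccl8, H2-Aa, Fcer1g and Apoe. Of 365 barcode sequences found in more than 1 library (0.677% of 53886), none was macrophage-like in more than 1 library.

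The macrophage-like class held 54, 69 and 52 barcodes in smoking libraries 1 to 3, against 67, 59 and 63 barcodes in control libraries 1 to 3. This was 0.720% ± 0.127 of retained barcodes in smoking libraries and 0.804% ± 0.0656 in controls (SD, n = 3 each). The groups overlapped, and an exact two-sided permutation test over 20 assignments gave p = 0.4, where 3 against 3 cannot go below 0.1. Macrophage-like barcodes were deeper in the smoking group, with medians of 5059.5, 4872 and 5506.5 UMIs in smoking libraries, against 4860, 3663 and 4622 UMIs in controls. Shares of barcodes with a gene are therefore also given at a fixed depth of 1500 UMIs per barcode, computed as the expected share if 1500 UMIs were drawn from each barcode. No macrophage-like barcode fell below this depth.

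RNA of other cells was present in the macrophage-like sums. The sperm chromatin transcripts Prm1, Prm2 and Tnp1 made up 3.02%, 4.01% and 9.01% of UMIs in smoking libraries, against 3.55%, 4.17% and 3.26% in controls. All 8 elongating spermatid markers were seen, with summed levels of 38878 to 106815 CPM (UMIs per 1000000 UMIs of the sum) in smoking libraries and 42716 to 54298 CPM in controls. Of the 7 monocyte markers in the files, 6 were seen at a summed 12.5 to 71.9 CPM in smoking libraries and 4.04 to 115 CPM in controls, with Ly6c2 at 0. Of 10 dendritic cell markers, 6 were seen at 24.9 to 33.2 CPM in smoking libraries and 20.2 to 60.9 CPM in controls, with Clec9a, Flt3, Itgax and Xcr1 at 0. All mast cell and red blood cell markers were at 0. Round spermatid markers summed to 443 to 533 CPM in smoking libraries and 596 to 795 CPM in controls, and B cell markers to 166 to 209 CPM in smoking libraries and 234 to 299 CPM in controls, both with no overlap. Spermatocyte markers summed to 2158 to 2708 CPM in smoking libraries and 2457 to 3149 CPM in controls. The 6 round spermatid and 6 spermatocyte marker genes that passed the filter on low counts all had negative log2 folds of smoking over control (medians -0.49 and -0.28). The marker Spag6 stands for 2 of these spermatocyte genes, which share the symbol. Positive log2 folds were found for 6 of 8 elongating spermatid markers (median 0.35). None of these marker genes was called. What part these differences have in the levels of the members was not tested beyond the rescaled values given with them. The 18 macrophage markers summed to 38410 to 50246 CPM in smoking libraries and 38547 to 44074 CPM in controls.

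All 3 lectins were higher on average in macrophage-like barcodes of smoking libraries. Clec4n stood at 417, 329 and 340.0 CPM in smoking libraries 1 to 3, against 247, 182 and 215 CPM in control libraries 1 to 3. All smoking libraries lay above every control, with means of 362 ± 48.0 CPM in smoking libraries and 214 ± 32.7 CPM in controls (SD, n = 3 each). The edgeR log2 fold of smoking over control was 0.82 (SE 0.21), from 113, 119 and 109 UMIs in smoking libraries and 75, 45 and 67 UMIs in controls.

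Clec10a stood at 196, 166 and 115 CPM in smoking libraries, against 148, 40.4 and 70.5 CPM in controls. The groups overlapped, because control 1 was above smoking 3. The means were 159 ± 40.5 CPM in smoking libraries and 86.4 ± 55.7 CPM in controls (SD, n = 3 each), and the edgeR log2 fold was 0.91 (SE 0.33). It was 1.56 without control 1 and 0.61 without control 2, which had only 10 Clec10a UMIs. It was 0.24 in 1 random draw of 1500 UMIs from each barcode before summing. The draw was not repeated, so this value also carries the error of the draw.

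Mrc1 stood at 1140.1, 666 and 708 CPM in smoking libraries, against 738, 606 and 804 CPM in controls. Smoking 1 was highest, and the other smoking libraries lay within the range of the controls. The edgeR log2 fold was 0.29 (SE 0.22, adjusted p = 0.991), and it was 0.04 without smoking 1. Mrc1 was not called by this test.

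Among the Ms4a members, Ms4a6c stood at 398, 309.5 and 246 CPM in smoking libraries, against 148, 194 and 224 CPM in controls. All smoking libraries lay above every control, although smoking 3 and control 3 were close. The means were 318 ± 76.4 CPM in smoking libraries and 189 ± 38.3 CPM in controls (SD, n = 3 each), with an edgeR log2 fold of 0.81 (SE 0.24).

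Its neighbour Ms4a6b stood at 199, 158 and 125 CPM in smoking libraries, against 119, 125 and 135 CPM in controls. The groups overlapped, and the edgeR log2 fold was 0.41 (SE 0.23, adjusted p = 0.991). It was -0.19 in the same random draw of 1500 UMIs from each barcode, which was not repeated. Ms4a7 stood at 808, 575 and 708 CPM in smoking libraries, against 583, 460.3 and 673 CPM in controls, also with overlap, and its edgeR log2 fold was 0.35 (SE 0.21, adjusted p = 0.991).

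**Figure D1:**
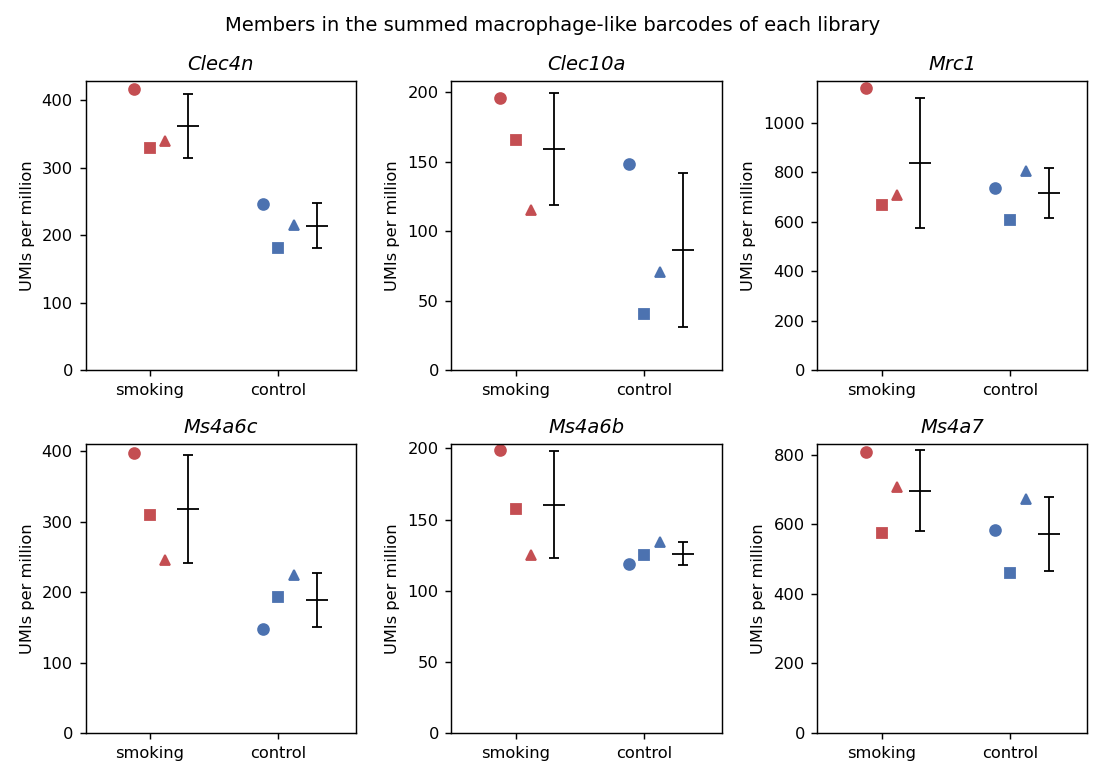
Level of each gene in CPM in the summed macrophage-like barcodes of each library, with smoking libraries in red on the left and control libraries in blue on the right. Circles, squares and triangles are libraries 1, 2 and 3, and the bar is the mean ± SD (n = 3). Clec4n and Ms4a6c show no overlap between groups, and the other 4 genes do.

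Read against all genes, no gene was called between smoking and control in the macrophage-like sums. Of 5085 genes tested with edgeR's quasi-likelihood test (Benjamini-Hochberg adjusted p under 0.05), 0 (0%) were called higher and 0 (0%) lower, and DESeq2 and limma-voom also called 0. An unadjusted p under 0.05 was reached by 190 genes. Without 1 library edgeR called 2 genes (without smoking 1), 7 (without smoking 3) or 1 (without control 3), and otherwise 0. The median log2 fold over all 5085 genes was 0.01. The CPM of 2.83% of genes was higher in all smoking libraries than in every control, and that of 7.24% was lower. All 6 members passed the filter on low counts and all had positive folds, and 2 of the 6 did not overlap, both among the 3 picked for rising, so nothing is read from this count. On simulated counts for this comparison, 42% of 2-fold and 94% of 4-fold changes were recovered.

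Scaling to the UMIs of the 18 macrophage markers in place of all UMIs kept the direction of all 6 members. Apoe was the largest part of these marker UMIs, at 16886 to 21300 CPM in smoking libraries and 17612 to 20835 CPM in controls. Per 10000 UMIs of the 18 macrophage markers, Clec4n reached 84.3 ± 3.71 in smoking libraries and 50.8 ± 4.65 in controls (SD, n = 3 each). Ms4a6c reached 73.4 ± 8.10 in smoking libraries and 45.1 ± 9.99 in controls. Clec10a reached 36.7 ± 5.84 in smoking libraries and 20.1 ± 12.1 in controls, with overlap. Ms4a6b no longer overlapped, at 37.0 ± 3.97 in smoking libraries and 30.1 ± 2.87 in controls (exact two-sided permutation p = 0.1, the smallest possible for 3 against 3). Its smoking 3 and control 2 values were 32.48 and 32.47. Ms4a7, at 163 ± 21.03 in smoking libraries and 135 ± 17.8 in controls (exact p = 0.2), and Mrc1, at 192 ± 31.7 in smoking libraries and 169.8 ± 13.9 in controls (exact p = 0.5), overlapped.

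In the 182 macrophage-like barcodes with the lower share of Prm1, Prm2 and Tnp1 UMIs, the log2 folds were 0.71 for Clec4n, 0.89 for Clec10a and 0.73 for Ms4a6c. They were 0.47 for Ms4a6b, 0.29 for Ms4a7 and 0.29 for Mrc1. The direction depended on the class. When any barcode with at least 4 macrophage markers was taken, with no clustering, the log2 folds were -0.19 for Clec4n, -0.22 for Ms4a6c, -0.60 for Ms4a6b, -0.69 for Ms4a7 and -0.73 for Mrc1, and 0.13 for Clec10a. Those 522 barcodes held 6.61, 6.78 and 12.3 times the UMIs of the macrophage-like class in smoking libraries, against 5.40, 2.03 and 5.55 times in controls. Per 10000 macrophage-marker UMIs in the same barcodes, Clec4n reached 70.9 ± 4.32 in smoking libraries and 46.7 ± 3.96 in controls, and Ms4a6c reached 63.1 ± 12.4 in smoking libraries and 41.5 ± 9.64 in controls, with no overlap for either gene (SD, n = 3 each). The other 4 members overlapped on this scale, with log2 ratios of group means of 0.80 for Clec10a, 0.19 for Ms4a6b, 0.12 for Ms4a7 and 0.06 for Mrc1.

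In the sums of all retained barcodes, where fewer macrophages and less RNA per macrophage cannot be told apart, every member overlapped between groups. Clec4n averaged 2.12 ± 0.435 CPM in smoking libraries and 1.63 ± 0.444 CPM in controls, and Ms4a6c averaged 2.21 ± 0.795 CPM in smoking libraries and 1.67 ± 0.537 CPM in controls (SD, n = 3 each). The edgeR log2 folds of the 3 tested members were 0.00 for Ms4a6b (adjusted p = 0.994), 0.11 for Ms4a7 (adjusted p = 0.795) and -0.06 for Mrc1 (adjusted p = 0.890). Of 18910 genes, 0 (0%) were called higher and 1 (0.00529%) lower in these sums, and an unadjusted p under 0.05 was reached by 2804. That 1 call became 0 without smoking 1, smoking 2 or control 1, 7 without smoking 3 and 2 without control 3.

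The share of macrophage-like barcodes with a gene followed the levels. Clec4n was seen in 64.8%, 49.3% and 57.7% of barcodes in smoking libraries, against 53.7%, 40.7% and 44.4% in controls. The groups overlapped, but at 1500 UMIs they did not, at 35.6%, 27.3% and 30.7% in smoking libraries, against 27.1%, 19.7% and 19.4% in controls. Barcodes with Clec4n held 3.45 ± 0.206 Clec4n UMIs each in smoking libraries and 2.12 ± 0.261 in controls (SD, n = 3 each). Both the share of positive barcodes and the UMIs per positive barcode were thus higher on average. The UMIs per positive barcode were counted without thinning, and macrophage-like barcodes were deeper in the smoking group.

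Ms4a6c was seen in 72.2%, 59.4% and 53.8% of barcodes in smoking libraries, against 49.3%, 40.7% and 44.4% in controls, with no overlap. At 1500 UMIs the shares were 40.2%, 30.7% and 25.3% in smoking libraries, against 19.6%, 17.98% and 19.2% in controls. The 3 controls lay close together and the smoking libraries were spread out. At least 2 Ms4a6c UMIs were found in 76 of 175 smoking barcodes and in 37 of 189 control barcodes.

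Clec10a was seen in 40.7%, 31.9% and 25.0% of barcodes in smoking libraries, against 35.8%, 11.9% and 19.05% in controls, with overlap. At 1500 UMIs these became 17.8%, 14.6% and 11.9% in smoking libraries, against 15.4%, 3.82% and 7.43% in controls. Control 1 again lay among the smoking libraries, and control 2 was the lowest.

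For the 3 tested members the shares at 1500 UMIs overlapped between groups. Ms4a6b was seen in 15.7% ± 3.29 of barcodes in smoking libraries and 14.5% ± 1.21 in controls (exact permutation p = 0.9), and in 40.005% ± 6.49 of barcodes in smoking libraries and 35.4% ± 0.468 in controls without thinning (exact p = 0.4). Ms4a7 was seen in 50.3% ± 7.81 in smoking libraries and 42.9% ± 2.45 in controls (exact p = 0.2), and Mrc1 in 51.6% ± 10.1 in smoking libraries and 46.2% ± 2.33 in controls (exact p = 0.5, n = 3 each). At 1500 UMIs each difference was smaller than the SD of the smoking libraries. Those of Ms4a7 and Mrc1 were larger than the SD of the controls. A p of 0.2 or more does not show that the shares were equal.

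**Figure D2:**
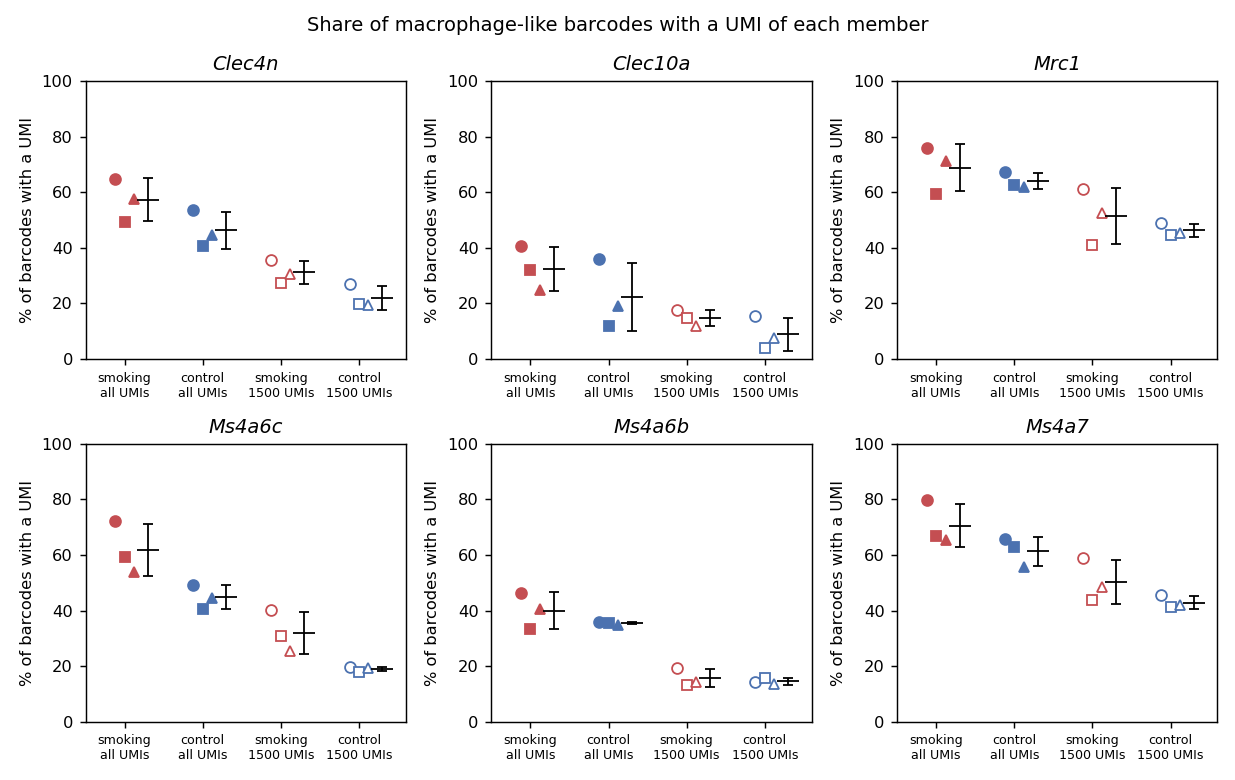
Percent of macrophage-like barcodes with at least 1 UMI of each gene, per library, over all UMIs (filled) and at 1500 UMIs per barcode (open). Smoking libraries are red, control libraries blue, and bars give the mean ± SD (n = 3). At 1500 UMIs the groups do not overlap for Clec4n and Ms4a6c and overlap for the others. For Clec4n the nearest values are close, at 27.3% in smoking 2 and 27.1% in control 1.

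The number of members found per barcode overlapped between the groups. A macrophage-like barcode held UMIs of 3.80, 3.0 and 3.13 members on average in smoking libraries, against 3.07, 2.54 and 2.60 in controls. At 1500 UMIs the means were 2.33, 1.71 and 1.83 in smoking libraries, against 1.71, 1.43 and 1.47 in controls. Control 1 lay above smoking 2 on both scales, at 1500 UMIs by 1.711 to 1.707. All 6 genes were seen together in 34 of 175 smoking barcodes (19.4%) and in 14 of 189 control barcodes (7.41%), and none of the 6 in 24 smoking barcodes (13.7%) and 43 control barcodes (22.8%). These counts include the 3 picked genes and carry the difference in depth, so they are a description.

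In every library, each pair of members was found together in more barcodes than if the 2 genes were independent. The share with both was lowest for Clec10a and Ms4a6b in control 2, at 3 of 59 barcodes. The odds ratio of joint detection, with 0.5 added to each count, was above 1 in 6 of 6 libraries for all 15 pairs. Pearson correlations of log(1 + UMIs per 10000) across barcodes were above 0 in 6 of 6 libraries for 14 pairs, and in 5 of 6 for Clec4n and Ms4a6b, whose lowest value was -0.02. The highest medians over libraries were 0.58 for Ms4a7 and Mrc1 (0.51 to 0.84), 0.57 for Clec4n and Mrc1 (0.44 to 0.68) and 0.55 for Ms4a6c and Mrc1 (0.19 to 0.67). The neighbours Ms4a6c and Ms4a6b had a median of 0.36 (0.32 to 0.41), the narrowest range of the 15 pairs.

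Depth is shared by all genes of a barcode. The correlation of each member with the log of the barcode's UMIs had a median of 0.38 for Clec10a to 0.61 for Mrc1. How much of the correlation between members it carries was not tested.

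**Figure D3:**
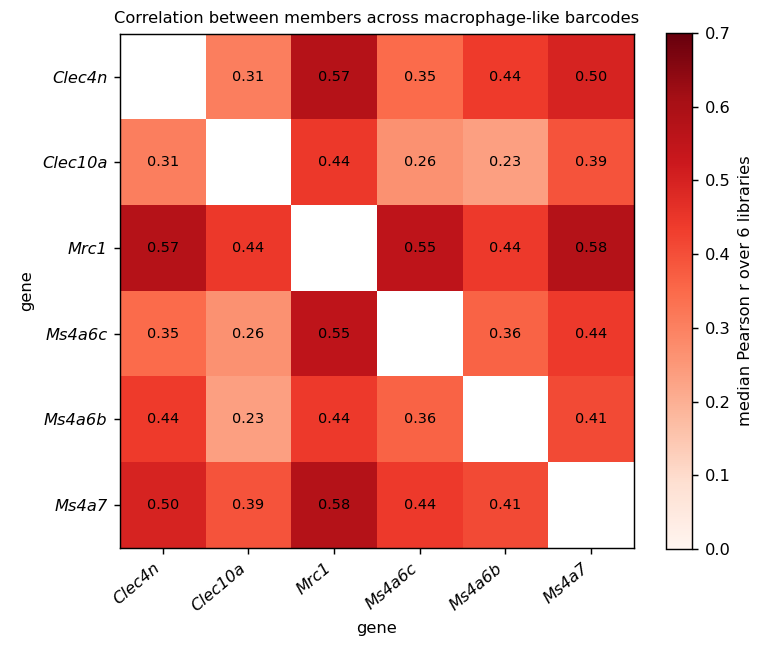
Pearson correlation between each pair of genes across macrophage-like barcodes, as the median over 6 libraries (darker red is higher). The pairs with Mrc1 are the highest for Clec4n, Clec10a, Ms4a6c, Ms4a6b and Ms4a7.

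The genes whose pattern was most like each member were taken from 4416 genes seen in at least 10% of macrophage-like barcodes, by mean correlation over the 6 libraries. For Clec4n they were Ctsb (0.63), a lysosomal protease, F13a1 (0.61), a coagulation factor subunit, and Selenop (0.59), a secreted selenoprotein. For Clec10a they were the lectin genes Cd209g (0.50) and Cd209f (0.50) and the complement factor properdin, Cfp (0.42). For Mrc1 they were the transcription factor gene Maf (0.75), Ctsb (0.73) and Grn (0.71), which encodes progranulin.

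Ms4a6c was most like Ctsb (0.56), Maf (0.53) and Psap (0.51), the precursor of the lysosomal saposins. Ms4a6b was most like Ctsb (0.46), Selenop (0.45) and Maf (0.45). Ms4a7 was most like Ctsd (0.71), Ctsb (0.70) and Apoe (0.69). Ctsb stood among the 3 nearest genes for 5 of the 6 members, and for Clec10a the place was taken by other lectins.

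Among other genes of the family and pathway, levels within macrophage-like sums were compared in the same edgeR fit, and 0 were called. Of 28 further C-type lectin genes in the files, 10 passed the filter on low counts, 6 with positive and 4 with negative log2 folds (median 0.06). Mgl2, the close relative of Clec10a, had 40.8 ± 18.6 CPM in smoking libraries and 49.6 ± 47.7 CPM in controls (log2 fold -0.27, SE 0.54, adjusted p = 0.991). Cd209g, nearest to Clec10a across barcodes, had 263 ± 96.9 CPM in smoking libraries and 335 ± 115 CPM in controls (log2 fold -0.28, SE 0.29, adjusted p = 0.991). Cd209f, the next nearest, had 852 ± 248.5 CPM in smoking libraries and 972 ± 219 CPM in controls (log2 fold -0.11, SE 0.24, adjusted p = 0.991, SD, n = 3 each).

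Of 16 further Ms4a family and related Tmem176 genes, 6 passed the filter and all had positive log2 folds (median 0.27). Ms4a6d, of the same gene cluster, had 141 ± 34.4 CPM in smoking libraries and 105 ± 8.80 CPM in controls with no overlap (log2 fold 0.49, SE 0.24, adjusted p = 0.991). Ms4a5, Ms4a13 and Ms4a14 are also in the count, but these were germ cell transcripts here. Ms4a5 had a pooled level of 185 CPM in macrophage-like barcodes and 622 CPM in elongating spermatid-like barcodes.

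Of 20 signalling genes downstream of the lectins, 11 passed, 6 with positive and 5 with negative folds (median 0.02). Fcer1g, which pairs with Clec4n, had 1497 ± 293 CPM in smoking libraries and 1341 ± 23.6 CPM in controls (log2 fold 0.23, SE 0.19, adjusted p = 0.991). Syk had 53.7 ± 14.1 CPM in smoking libraries and 71.9 ± 13.3 CPM in controls (log2 fold -0.37, SE 0.29, adjusted p = 0.991, SD, n = 3 each). Of 15 cytokine genes 7 passed, 6 with positive folds (median 0.22). Of 20 uptake receptor genes 10 passed, 9 with positive folds (median 0.20), and of 18 macrophage regulators 14 passed, 10 with positive folds (median 0.05). The 18 macrophage markers all passed, 15 with positive folds (median 0.14), and over all 5085 genes 51.3% of folds were positive. Of 10 MHC class II genes 6 passed, 5 with positive folds (median 0.35).

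Of 20 genes of resident and alternatively activated macrophages, 15 passed, 11 with positive folds (median 0.23). Ccl8, a chemokine gene of that list, had 2158 ± 995 CPM in smoking libraries and 618 ± 408 CPM in controls with no overlap (log2 fold 1.87, SE 0.38, n = 3 each), with an adjusted p of 0.339, the lowest value in this fit, which Gm48168 shared. Smoking libraries ranged from 1107 to 3084 CPM and controls from 366 to 1089 CPM. It is named here after its value was seen.

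Testis macrophages differ in MHC class II, so the macrophage-like barcodes were split into an MHC-high and an MHC-low set at the median of summed H2-Aa, H2-Ab1, H2-Eb1 and Cd74 UMIs, 2.76 per 10000, with 12 barcodes within 20% of it. All 6 log2 folds of the MHC-high over the MHC-low set were negative, none passed the threshold, and the number of libraries with the lower value in the MHC-high set ranged from 3 to 6 of 6. The negative sign was not particular to the members. Of 18 macrophage markers 1 had a positive log2 fold between the sets (median -0.15), and of 8 elongating spermatid markers 0 did (median -0.14). Over 6 libraries, Clec4n averaged 238 ± 91.1 CPM in the MHC-high set and 334 ± 85.0 CPM in the MHC-low set (SD), was lower in the MHC-high set in 6 of 6 libraries and had an edgeR log2 fold of -0.57 (SE 0.17, adjusted p = 0.164). In smoking libraries Clec4n had 353, 276 and 317 CPM in the MHC-high set and 461, 398 and 348 CPM in the MHC-low set. In controls it had 173, 123 and 183 CPM in the MHC-high set and 296, 247 and 252 CPM in the MHC-low set. In each set all smoking libraries lay above every control for this picked gene. The sets are parts of the macrophages in which it was picked for rising, so nothing is read from this.

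Ms4a6b averaged 110.4 ± 18.5 CPM in the MHC-high set and 173 ± 55.6 CPM in the MHC-low set, lower in 5 of 6 libraries (log2 fold -0.68, SE 0.22, adjusted p = 0.214). Ms4a7 averaged 559.7 ± 190.2 CPM in the MHC-high set and 725 ± 91.7 CPM in the MHC-low set, lower in 5 of 6 libraries (log2 fold -0.47, SE 0.16, adjusted p = 0.220). Mrc1 averaged 687 ± 187 CPM in the MHC-high set and 882 ± 254 CPM in the MHC-low set, lower in 5 of 6 libraries (log2 fold -0.41, SE 0.17, adjusted p = 0.367). Without smoking 3, where Ms4a7 and Mrc1 were higher in the MHC-high set, the fit called Clec4n (-0.61, adjusted p = 0.0229), Ms4a7 (-0.57, adjusted p = 0.00930) and Mrc1 (-0.56, adjusted p = 0.0141). That fit called 158 genes in all, against 26 with all libraries, so these calls came with a general rise in calls. Setting the highest against the lowest barcodes by this score, without those between, also called Ms4a7 (-0.59, adjusted p = 0.0335), among 121 genes called.

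Clec10a and Ms4a6c were not called either. Clec10a averaged 109.9 ± 46.3 CPM in the MHC-high set and 140.5 ± 90.1 CPM in the MHC-low set, lower in 4 of 6 libraries (log2 fold -0.36, SE 0.28, adjusted p = 0.738). Ms4a6c averaged 245 ± 116 CPM in the MHC-high set and 276 ± 91.5 CPM in the MHC-low set, lower in 3 of 6 libraries (log2 fold -0.25, SE 0.22, adjusted p = 0.767).

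**Figure D4:**
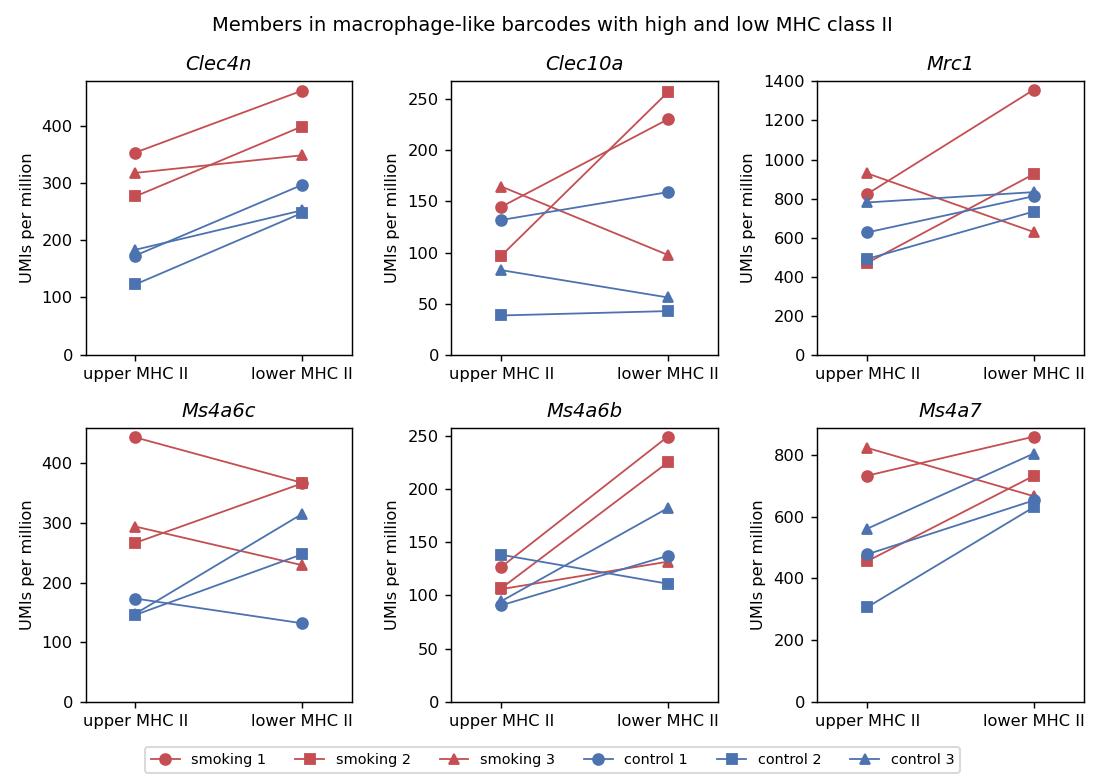
Level of each gene in CPM in macrophage-like barcodes of the MHC-high (left, labelled upper) and MHC-low (right, labelled lower) set, with 1 line per library, red for smoking and blue for control. Clec4n is lower in the MHC-high set in 6 of 6 libraries, and Ms4a7 and Mrc1 run the other way only in smoking 3.

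Of 2663 genes tested between the sets, 24 (0.901%) were called higher and 2 (0.0751%) lower in the MHC-high set, 3 of the 24 being genes of the split itself. None of the 6 members was called. Called members of the lists were the inflammatory genes Il1b (log2 fold 4.15, SE 0.40), Ccl4 (3.11, SE 0.42) and Cxcl2 (2.47, SE 0.37), the lipopolysaccharide co-receptor gene Cd14 (2.49, SE 0.27) and H2-DMa (1.19, SE 0.26), which helps to load peptide on MHC class II. Of 13 tested genes of resident and alternatively activated macrophages, 0 were called and all had negative log2 folds (median -0.64), where the median of all 2663 genes was -0.05. The count of 26 called genes was 6 without smoking 1, 8 without smoking 2, 158 without smoking 3, 32 without control 1, 8 without control 2 and 7 without control 3.

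No difference of the smoking effect between the sets was called. The MHC-high set held 48.1% ± 16.3 of macrophage-like barcodes in smoking libraries and 50.6% ± 9.004 in controls (exact permutation p = 1.0, SD, n = 3 each). For the difference of the smoking effect between the sets, limma called 0 of 2663 genes (0%), while 77 reached an unadjusted p under 0.05. The adjusted p was 0.998 for all 6 members, with differences of log2 folds (MHC-high set minus MHC-low set) from -0.58 (SE 0.52) for Clec10a to 0.41 (SE 0.46) for Ms4a6c.

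Across the testis the members were macrophage transcripts to unequal degrees. Macrophage-like barcodes, 364 of 47920, held 98.0% of Ms4a7 UMIs, 96.0% of Clec4n UMIs, 81.8% of Ms4a6c UMIs, 76.8% of Mrc1 UMIs, 56.3% of Ms4a6b UMIs and 48.3% of Clec10a UMIs. Clec4n ranged from 182 to 417 CPM over libraries in the macrophage-like class, and in the other named classes its highest value in any library was 1.83 CPM, in Leydig-like barcodes. Ms4a7 ranged from 460.3 to 808 CPM in the macrophage-like class and reached at most 7.39 CPM elsewhere, also in Leydig-like barcodes. Below the macrophage-like class the libraries of the other classes overlapped for both genes, mostly at 0. As a background, Clec4n was seen in 1 of 3181 elongating spermatid-like barcodes (0.0314%, median 21154 UMIs) and in 51.4% of macrophage-like barcodes (median 4747.5 UMIs).

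Mrc1 ranged from 606 to 1140.1 CPM in the macrophage-like class. Sertoli-like barcodes came next, at 11.9 to 26.2 CPM in the 6 libraries, a range that the mesenchymal-like class (0 to 15.4 CPM) overlapped. Most of it lay in 1 of 4 Sertoli-like clusters, of 72 deep barcodes (median 18742 UMIs) with 10 of 10 Sertoli markers. In this cluster 52 barcodes (72.2%) had Mrc1, with 188 UMIs. At 1500 UMIs the share was 17.1%. The same 72 barcodes held 1 UMI of the other 5 members together and 5 UMIs of Lyz2, C1qa, C1qb, C1qc, Tyrobp and Csf1r together. Its level was 93.9, 125 and 93.1 CPM in smoking libraries, against 118, 232 and 209 CPM in controls, from 5 to 20 barcodes per library, and the groups overlapped.

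Clec10a ranged from 40.4 to 196 CPM in the macrophage-like class. By the median over libraries, spermatocyte-like barcodes came next with 1.41 to 2.48 CPM in the libraries, then round spermatid-like barcodes with 0.607 to 1.99 CPM, and these ranges overlapped. The ratio to Clec4n differed between classes, with 227 Clec10a and 528 Clec4n UMIs in macrophage-like barcodes, 51 Clec10a and 0 Clec4n UMIs in spermatocyte-like barcodes and 74 Clec10a and 8 Clec4n UMIs in round spermatid-like barcodes. Among spermatocyte-like and round spermatid-like clusters, the share of barcodes with Clec10a was highest in deep ones. It was 8.54% of 246 spermatocyte-like barcodes with a median of 52791.5 UMIs, at 1.51 CPM. It was 6.05% of 909 round spermatid-like barcodes with a median of 33611 UMIs, at 1.31 CPM. The other spermatocyte-like cluster, of 2728 barcodes with a median of 2861.5 UMIs, had Clec10a in 24 (0.880%), at 2.41 CPM.

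Ms4a6c and Ms4a6b had a further low signal in round spermatid-like barcodes and in clusters left unnamed. The 29719 unnamed barcodes held 20.8% of Ms4a6b UMIs and 6.90% of Ms4a6c UMIs. Round spermatid-like barcodes held 14.5% of Ms4a6b UMIs and 9.03% of Ms4a6c UMIs. Ms4a6b reached 5.37 CPM in 1 unnamed cluster of 1442 barcodes. Ms4a6c ranged from 148 to 398 CPM in the macrophage-like class and from 0 to 2.12 CPM in round spermatid-like barcodes. In 1 cluster of 2068 round spermatid-like barcodes, 27 (1.31%) had Ms4a6c, 6, 8 and 1 in smoking libraries and 0, 10 and 2 in controls, and 31 (1.499%) had Ms4a6b, 5, 8 and 5 in smoking libraries and 7, 4 and 2 in controls. Ms4a6b ranged from 119 to 199 CPM in the macrophage-like class and from 0.658 to 1.48 CPM in round spermatid-like barcodes. These are shares of barcodes with a UMI and not of cells that express the gene.

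**Figure D5:**
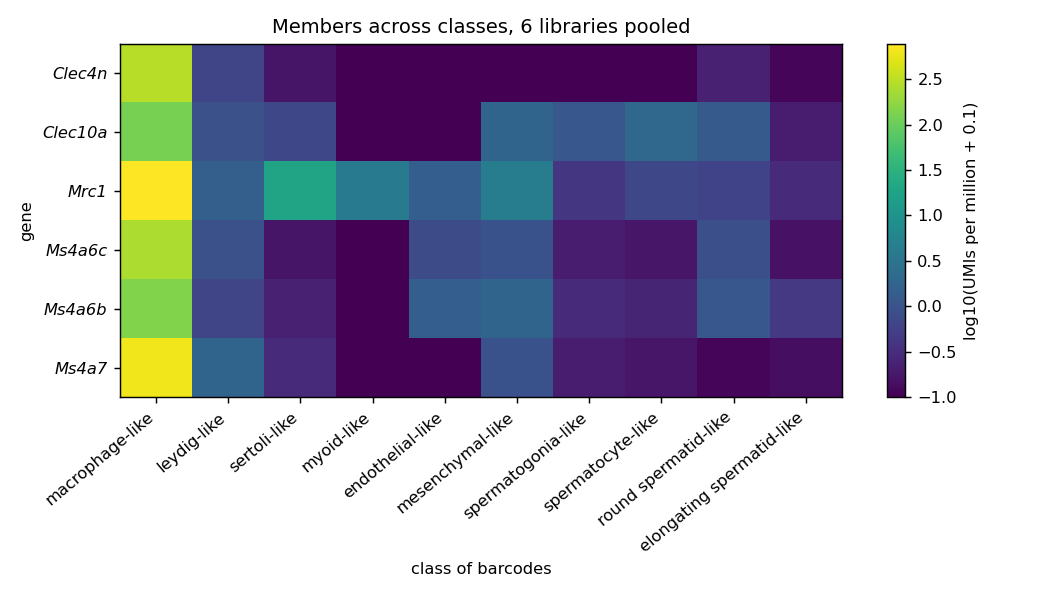
Pooled level of each gene in 10 named classes of barcodes over all 6 libraries, as log10 of CPM plus 0.1. The macrophage-like class is the highest for all 6 genes, and Mrc1 in Sertoli-like barcodes, at 18.5 CPM, is the next highest value.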

How the data were processed

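Single-cell RNA-seq of 6 testis libraries (10x Genomics 3′ chemistry, per the labels' protocols) was used. The deposited files hold raw UMI counts per gene and barcode, already filtered to called cells. The matrix headers give software version 3.1.0, while Cell Ranger 7.1.0, CASAVA 1.8 and mm10 stand in the submitters' processing notes. Which version made the counts and whether strand was used are not stated there. The files with gene and barcode names hold no measurement.

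The members, gene lists and tests were chosen with earlier results of these data known. Barcodes with over 20% mitochondrial UMIs (2459) and 3935 doublets, scored per library against simulated pairs and removed at 0.8% per 1000 barcodes, were left out. No deposited barcode had under 1554 UMIs. The 2000 variable genes, without the 6 members, gave 30 principal components and a graph of 20 neighbours. The graph held all deposited barcodes and was clustered by Leiden at resolution 1 with leidenalg 0.10.2. High-mitochondrial barcodes and doublets were dropped from the clusters afterwards. To be named, a cluster had to show 3 or more markers of the class (log2 fold of 1 or more, seen in 20% of its barcodes). In macrophage-like sums a library had 247670 to 361825 UMIs, and intervals of shares would cover counting error only.

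Counts of the macrophage-like class were summed per library, and smoking was compared with control in edgeR 4.0.16 (TMM, filterByExpr, quasi-likelihood test, adjusted p under 0.05 over all genes), with the SE taken as the fold divided by the square root of F. The MHC sets were fitted with the library as a block, and the interaction with limma 3.58.1 on within-library differences. Shares were tested by exact permutation of the library labels (two-sided, 20 assignments). Alternatives included DESeq2 1.42.0, voom, other scalings, filters and classes, and leaving out each library. Further named genes are up to 4 genes of each list past the threshold per comparison (genes of the MHC split itself left unnamed there) and the 3 genes nearest to each member. Mgl2, Cd209f, Ms4a6d, Ms4a5, Fcer1g, Syk, Ccl8 and Gm48168 were named outside this rule, after their values were seen. The edgeR step was checked on simulated counts.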

Additional observations from a re-analysis of the deposited data

How the results depend on the processing

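No paired analysis was possible because the library titles share no replicate number between groups, and the numbers used here follow only the order of deposit.

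In macrophage-like sums, the 0 calls became 16 with no filter on low counts and 2 in the 182 barcodes with fewer germ transcripts. They became 1 in the random draw of 1500 UMIs per barcode, which was made only 1 time. They ranged from 0 to 7 when 1 library was left out (2 without smoking 1, 7 without smoking 3 and 1 without control 3). Of 96 alternative folds of the members there, 90 kept their direction. Ms4a6b was reversed in the random draw of 1500 UMIs (-0.19). In barcodes with at least 4 macrophage markers, Clec4n (-0.19), Ms4a6c (-0.22), Ms4a6b (-0.60), Ms4a7 (-0.69) and Mrc1 (-0.73) were reversed. These barcodes hold 2.03 to 12.3 times as many UMIs as the clustered class. The share of macrophage-like barcodes, -0.0849 percentage points for smoking minus control, was 0.119 in these barcodes and -0.153 to -0.0266 when 1 library was left out.

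In all barcodes the 1 call ranged from 0 to 7 without 1 library (0 without smoking 1, smoking 2 or control 1, 7 without smoking 3, 2 without control 3), and the log2 folds ranged from -0.12 to 0.15 for Ms4a6b, -0.0437 to 0.21 for Ms4a7 and -0.23 to 0.0882 for Mrc1. Between the MHC class II sets the 26 calls became 92 with no filter and 121 when only the highest and lowest barcodes by the score were compared, and ranged from 6 to 158 without 1 library (6 without smoking 1, 8 without smoking 2, 158 without smoking 3, 8 without control 2, 7 without control 3). The members' folds between the sets kept their direction. The difference of the smoking effect between the sets was -0.58 for Clec10a and 0.28 in that narrower comparison, and -0.15 for Mrc1, where it ranged from -0.58 to 0.0885 without 1 library. Its 0 calls did not change.

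The share of barcodes with Ms4a6c at 1500 UMIs was 13.2 percentage points higher in smoking libraries, and 9.09 to 16.5 points higher without 1 library. Without thinning the difference was 17.04 points for at least 1 UMI and 23.8 points for at least 2. That of Ms4a6b at 1500 UMIs, 1.16 points, ranged from -0.711 to 2.36 points without 1 library. Other causes of change were not tested. The limit of 5 germ transcript UMIs per 10000 left 0 barcodes and was not run. The 182 barcodes with fewer germ transcripts and the scaling to macrophage-marker UMIs were chosen after seeing the data. With 52 to 69 macrophage-like barcodes per library, a library had 10 to 60 Clec10a UMIs and 31 to 57 Ms4a6b UMIs, which limits the precision of both genes.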
